A study of Homo sapiens with 12 samples.

Results

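KLF5 silencing in BICR31, a tumour cell line of head and neck squamous carcinoma, was described from 6 of the 12 libraries of the series, chosen by their labels. In 3 libraries (siKLF5 A, B and C) the cells had received a small interfering RNA, a short duplex that directs cleavage of a matching transcript, against KLF5. The other 3 (siNC A, B and C) had received the siRNA negative control, so all 6 had been transfected with an siRNA and carried no other alteration named in the labels. The remaining 6 libraries are of HCC95, a lung squamous cell carcinoma line, 2 each with an empty vector, wild-type KLF5 and the KLF5 mutant E419Q. The empty-vector and wild-type libraries serve for values set side by side in the closing section. The HCC95 files also gave the gene symbols and lengths used here. The siRNA sequences, the number of siRNAs against KLF5 and the time from transfection to harvest were not given in the sources used here. An effect of an siRNA on transcripts other than its target cannot be told apart from an effect of KLF5 loss in this design. Transcripts were measured as sequenced poly(A) RNA. Nothing in the labels says that libraries of 1 group were separate cultures: p-values therefore reflect the scatter among 3 libraries a group, which could be technical.

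KLF5 is a zinc-finger transcription factor of the Krüppel-like family, whose members bind GC-rich and CACCC-type sequences in promoters and enhancers. In stratified epithelia such as the lining of the mouth and oesophagus it is made mainly in the proliferating basal layer, where it is known for sustaining cell division and, with p63, epithelial identity. Keratins, junctions, secreted proteins and genes of division, each a known trait of such epithelia, are described in turn below.

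KLF5 itself (ENSG00000102554.9) stood at 37.9% of the control level, a log2 fold change of -1.40 (958.7 ± 67.5 against 2530 ± 211 units of normalised signal as deposited, SD, n = 3 libraries each, limma adjusted p = 7.27e-09). The transcript was thus lowered and not lost, and the labels matched the targeted gene in all 6 libraries. The cells carried the keratins and cadherin of a squamous epithelium, with KRT5 between 42612 and 68627 units, KRT17 between 23367 and 35257 and CDH1 between 14045 and 26292 units over the 6 libraries. KRT14, the usual partner of KRT5, was at only 42.67 to 163.6 units. Counts were estimated by taking the most frequent value above 0 in each library as 1 count, worth 7.87 to 9.12 units. By this estimate the siKLF5 libraries held 2150783 to 2296191 counts and the siNC libraries 1922358 to 1934361. In bulk RNA, fewer cells of a type and less RNA per cell cannot be told apart. Of 4 lists of other cell types, the 7 neural and muscle markers had the highest sum, 4087 to 4271 units with siKLF5 against 1098 to 1411 with siNC, with 2 at 0 in all libraries. Nearly all of it was TUBB3 (4162 against 1224 units, 1.77 log2), a neuronal tubulin also made in carcinoma cells, and GFAP, DES, S100B, MYH11 and ACTA1 were each at 0 to 18.42 units. The 7 fibroblast markers summed to 43.75 to 49.3 units with siKLF5 and 63.64 to 72.95 with siNC, with 1 at 0. The 6 endothelial markers summed to 267.7 to 435.5 against 171.6 to 246.2 units, with none at 0. The 7 leukocyte markers summed to 915.8 to 952.2 against 461.5 to 542.7 units with 2 at 0, most of it CD68, a lysosomal protein also made outside macrophages, which rose (632 against 322 units, 0.97 log2). Their part in the results below was not tested.

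Of 15710 genes tested, 2404 rose (15.3%) and 1693 fell (10.8%) at a limma adjusted p under 0.05, together 26.1%, and these shares are the background for every group below. A change of at least 2-fold was reached by 568 of the genes that rose and 193 of those that fell, and of at least 4-fold by 153 and 37. The median log2 fold change of all genes tested was 0.04. With quantile normalization 2005 genes rose and 2129 fell, so the share of calls that rose was 48.5% there and 58.7% in the values as deposited. The first principal component of the 6 libraries, with 31.1% of the variance, separated siKLF5 from siNC. With limma's variance not tied to the mean level, 1420 genes rose and 861 fell. The plot of all genes tested shows called genes across the range of levels, with the largest changes at low and middle levels. In what follows, a number in parentheses after a gene symbol is its log2 fold change, siKLF5 minus siNC, on the log2(signal + 1) scale, and levels are in units of the deposited signal unless said otherwise. For low genes this value can differ from the ratio of the means in either direction, and it exceeds that ratio where a siNC library is at 0: for ATG9B the fitted fold was 19.8 and the siKLF5 mean was 974% of the control mean, for KCNK15 18.7 and 1168%, and for IDO1 33.2 and 2613%.

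**Figure D1:**
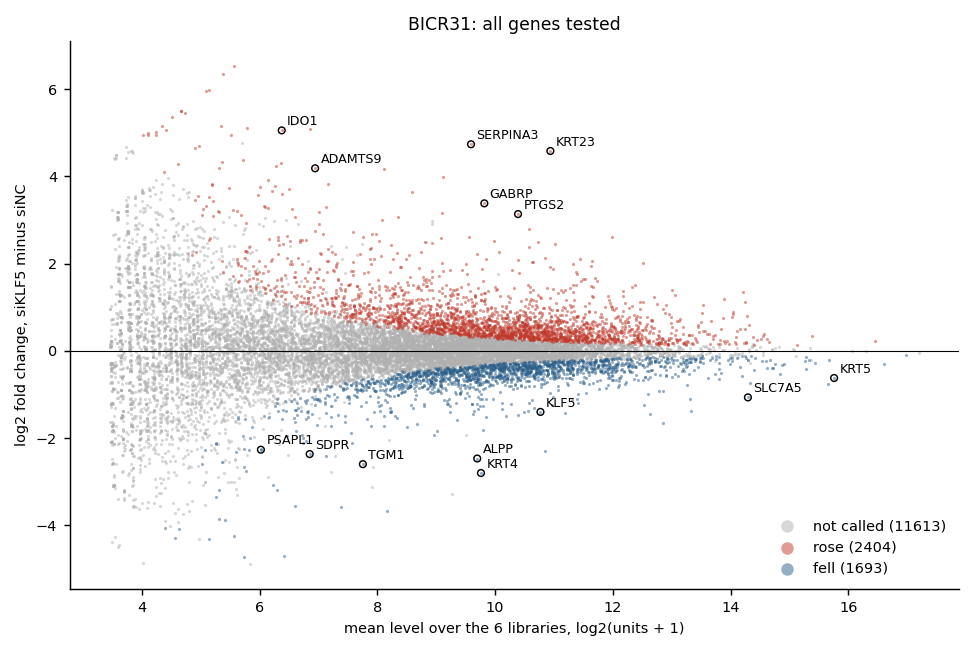
Each point is 1 of 15710 genes, with its mean level over the 6 BICR31 libraries as log2(units + 1) on the x axis and its log2 fold change, siKLF5 minus siNC, on the y axis. Red points are the 2404 genes that rose, blue points the 1693 that fell and grey points those not called. KLF5 lies at -1.40, and KRT23 and SERPINA3 lie above 4.

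The 20 largest rises were led, among genes with many counts, by SERPINA3 and KRT23. SERPINA3 (4.74), an acute-phase protease inhibitor, stood at 1602, 1228 and 1606 units in siKLF5 A, B and C and at 79.55, 27.36 and 72.27 units in siNC A, B and C. KRT23 (4.58), a type I keratin, went from 163.6, 182.4 and 126.5 units with siNC to 3714, 3442 and 4134 with siKLF5. In both genes every siKLF5 library lay far above every siNC library, and the limma adjusted p was 4.89e-09 for SERPINA3 and 1.45e-12 for KRT23. CFTR (4.17), the chloride channel of secretory epithelia, was at 550.5, 533.3 and 464.6 units against 63.64, 18.24 and 18.07. GABRP (3.38), a GABA receptor subunit made in several epithelia, was at 1808, 1442 and 1669 units against 181.8, 109.4 and 189.7. PGBD5 (3.98), a domesticated transposase gene, was at 1068, 991.7 and 1039 units against 109.1, 45.59 and 54.2. The spread within each group was small beside the gap between the groups for these genes. That no library overlapped with the other group was a criterion by which they were chosen.

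Further members of the 20 largest rises had various roles. PTGS2 (3.14), the inducible cyclooxygenase of prostaglandin synthesis, was at 2498, 2208 and 2512 units against 263.6, 273.6 and 280. TNFRSF11B (3.16), osteoprotegerin, a decoy receptor for TNF-family ligands, was at 1085, 991.7 and 850.4 units against 145.5, 72.95 and 117.4. GBP2 (3.07), an interferon-induced GTPase, was at 599.8, 550 and 590.6 units against 109.1, 45.59 and 63.23. In the siNC libraries together PTGS2 had 90 counts, TNFRSF11B had 37 and GBP2 had 24, so these folds do not rest on single counts. IDO1 (5.05), the enzyme that starts tryptophan breakdown, had 58 counts over the siKLF5 libraries against 2 over the siNC libraries, a ratio of 25.26 (95% counting interval 6.685 to 213.6, which covers counting error only). Low in the control as well were the secreted metalloproteinases ADAMTS9 (4.18) and MMP10 (3.59), the sodium-glucose transporter SLC5A1 (3.28) and the potassium channels KCNK15 (4.23) and KCNF1 (3.24). The other members of the 20 were ATG9B (4.31), CXCL10 (3.63), B3GNT7 (3.30), FFAR2 (3.18), a receptor for short-chain fatty acids, EMILIN2 (3.08) and VTCN1 (3.01). With limma's variance not tied to the mean level, the calls of ATG9B (adjusted p = 0.102) and KCNK15 (adjusted p = 0.0933) were lost.

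The 20 largest falls were led by KRT4, TGM1 and ALPP. KRT4 (-2.80), a keratin of the suprabasal layers of mouth and oesophagus, stood at 271.2, 133.3 and 275.6 units in siKLF5 A, B and C and at 1545, 1423 and 1545 units in siNC A, B and C. TGM1 (-2.60), the transglutaminase that cross-links the cornified envelope, was at 57.52, 91.67 and 39.37 units against 427.3, 364.7 and 307.1. ALPP (-2.47), placental alkaline phosphatase, which has close paralogs whose reads may be shared, was at 252.8, 273.9 and 228.3 units against 1232, 1676 and 1305. Each siKLF5 library lay under each siNC library for all 3, as the rule of choice required. DKK3 (-1.81), a secreted protein of the Dickkopf family, was at 419.1, 375 and 385.8 units against 1273, 1486 and 1382. ZBED2 (-1.84), a zinc-finger transcription factor, was at 205.4, 241.7 and 228.3 units against 881.8, 811.6 and 731.7. NRARP (-1.93), a feedback inhibitor of NOTCH signalling, was at 205.4, 175 and 236.2 units against 790.9, 674.8 and 894.3. LY6D (-1.74), a GPI-anchored surface protein of keratinocytes, was at 156.1, 158.3 and 181.1 units against 681.8, 483.3 and 514.9. These 4 genes kept between 26.1% and 29.5% of the control level.

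Beside ZBED2, the 20 largest falls included the transcription factors ZIC2 (-2.10), SALL3 (-1.71), OVOL2 (-2.25), MYBL1 (-2.07) and SNAI2 (-1.73). Others were SDPR (-2.36), PSAPL1 (-2.26), TRNP1 (-1.998), SPOCK2 (-1.94), the potassium channel KCNH3 (-1.89), MARC1 (-1.84) and APCDD1 (-1.73), an inhibitor of WNT signalling. With limma's variance not tied to the mean level, the calls of OVOL2 (adjusted p = 0.0634) and SDPR (adjusted p = 0.0631) were lost. The plot of the largest changes by library shows no overlap between groups for any of them, a criterion by which they were chosen.

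**Figure D2:**
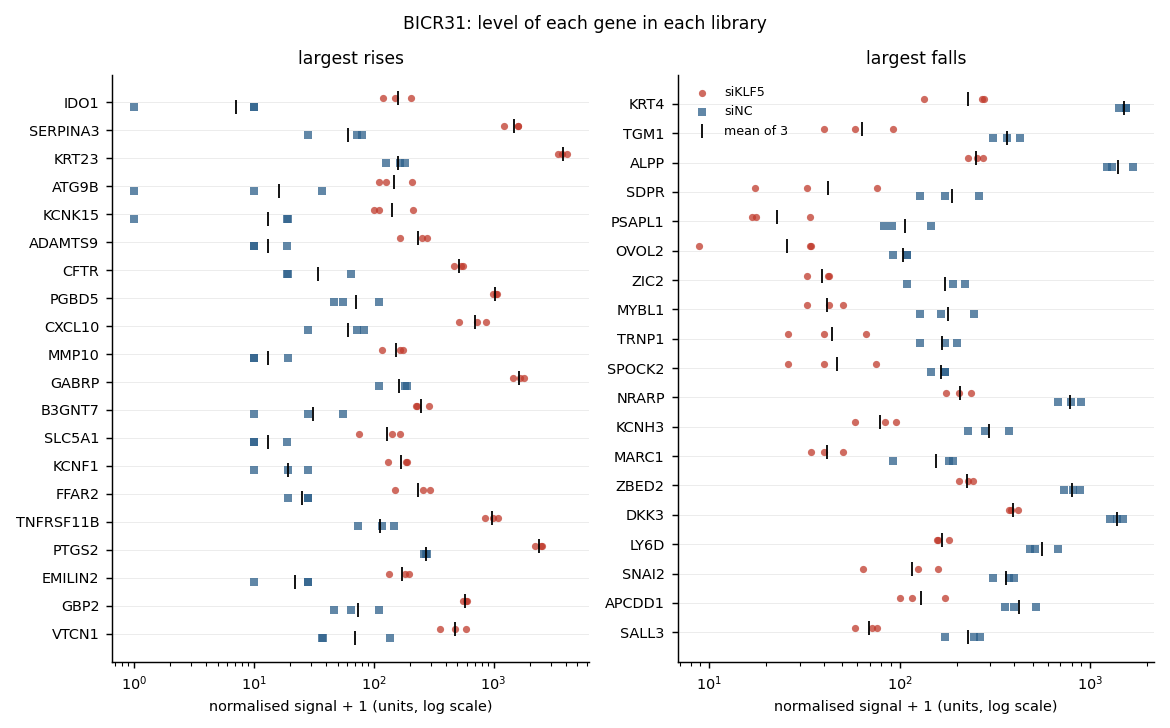
Level of the 20 largest rises (left) and of 19 of the 20 largest falls (right) in each library, as normalised signal + 1 in units on a log scale, with red circles for the 3 siKLF5 libraries, blue squares for the 3 siNC libraries and a black bar for the mean of 3. SERPINA3 and KRT23 reach 1228 to 4134 units with siKLF5, while IDO1, ATG9B and KCNK15 have a siNC library at 0.

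The promoters of the genes that moved most are shown because Krüppel-like factors bind CACCC and GC boxes there. Sequences are the 250 bases before the annotated start, from RefSeq's table for GRCh38.p14, written 5′ to 3′ on the gene's strand, and capitals mark matches to CCNCNCCC on either strand. SERPINA3 lies at chr14:94612141-94612390 (plus strand), ATG9B at chr7:151024500-151024749 (minus strand), KRT4 at chr12:52814117-52814366 (minus strand) and ALPP at chr2:232378501-232378750 (plus strand). They are the 2 largest rises and the 2 largest falls, by fitted log2 fold change, for which a promoter could be matched and shown, and the rank of ATG9B rests on low siNC values with 1 library at 0.

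SERPINA3: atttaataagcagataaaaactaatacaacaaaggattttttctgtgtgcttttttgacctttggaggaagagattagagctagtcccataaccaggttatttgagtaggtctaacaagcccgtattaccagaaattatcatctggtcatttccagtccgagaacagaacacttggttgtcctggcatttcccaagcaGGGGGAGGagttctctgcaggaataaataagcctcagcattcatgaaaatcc

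ATG9B: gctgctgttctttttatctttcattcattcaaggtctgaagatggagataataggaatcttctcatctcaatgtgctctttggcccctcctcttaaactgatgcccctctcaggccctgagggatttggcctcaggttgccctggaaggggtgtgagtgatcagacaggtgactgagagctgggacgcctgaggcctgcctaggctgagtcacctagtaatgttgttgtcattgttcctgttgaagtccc

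KRT4: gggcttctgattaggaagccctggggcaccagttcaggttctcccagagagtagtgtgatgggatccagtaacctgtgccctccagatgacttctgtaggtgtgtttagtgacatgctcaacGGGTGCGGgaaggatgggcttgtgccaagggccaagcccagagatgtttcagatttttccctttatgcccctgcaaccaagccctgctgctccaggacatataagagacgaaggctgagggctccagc

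ALPP: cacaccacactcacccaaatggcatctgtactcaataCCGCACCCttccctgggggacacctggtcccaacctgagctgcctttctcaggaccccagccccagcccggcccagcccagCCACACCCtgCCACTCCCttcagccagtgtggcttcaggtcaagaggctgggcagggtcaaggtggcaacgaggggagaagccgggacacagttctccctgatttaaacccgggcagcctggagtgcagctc

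ALPP held 3 matches, SERPINA3 and KRT4 had 1 each, and ATG9B had 0 in this window. A match is a description of letters and not a bound site. Over the tested protein-coding genes, promoters were matched for 10682 of 13287 (80.4%), and 71.6% of those held CCNCNCCC. The share was 72.5% among genes that fell and 76.5% among genes that rose, and 78.7% and 73.6% among those that fell or rose at least 2-fold. Of all 27305 promoters in the table, 52.4% held it. The motif was thus common in every group of promoters.

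Keratins, the intermediate filaments that define epithelial type, changed one by one. To compare genes, the signal was divided by transcript length and scaled to the same sum in each library (a level per length). By that level KRT19, a keratin of many simple and basal epithelia, was the highest keratin in both groups, at 4886 ± 73.5 with siKLF5 and 4882 ± 165.7 with siNC (SD, n = 3), and did not pass the test. KRT8, of simple epithelia, stood at place 2 in both groups and its partner KRT18 at place 5: KRT8 was at 2104, 2172 and 2154 with siKLF5 against 3477, 3669 and 3586 with siNC, and KRT18 at 1002, 1020 and 984.8 against 1617, 1667 and 1669. The basal keratin KRT5 was at 1624, 1678 and 1677 against 2499, 2547 and 2538, and KRT17, of basal and wounded epithelium, at 1503, 1515 and 1569 against 2134, 2187 and 2259. All 4 fell without overlap (KRT8 -0.75, KRT18 -0.73, KRT5 -0.62, KRT17 -0.53). KRT6A (-1.37), of wound edges, went from 596.9 ± 33.4 to 233.5 ± 6.95 on that scale, with reads that may be shared with its paralogs. KRT13 (-0.82) and KRT4, the mucosal pair, went from 106.3 to 60.5 and from 65.52 to 9.937.

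Against these falls, KRT23 rose from 14.62 to 352.7 per length and KRT81 (1.88), a hair-type keratin, from 42.13 to 156.6. Of 6 basal and suprabasal keratins tested 2 rose and 3 fell. The 2 were KRT15, from 100.4 to 123.3 per length, and KRT10, from 101.6 to 121.7. With 1 library left out, only 0 or 1 of the list rose. In the order of levels over the 25 keratins listed, KRT23 moved from place 15 to place 8, KRT81 from 14 to 10 and KRT4 from 13 to 16. The first 6 places, KRT19, KRT8, KRT5, KRT17, KRT18 and KRT7, were the same in both groups. The summed level of all keratins listed was 13427 ± 102.6 per length with siKLF5 and 16980 ± 339.1 with siNC, with no overlap of the libraries. KRT80 (0.24) rose too, a call lost with limma's variance not tied to the mean level (adjusted p = 0.0797). KRT14 had a call at -1.19 that was lost without siKLF5 B (limma adjusted p = 0.0850), siKLF5 C (0.0622), siNC A (0.0742), siNC B (0.0591) or siNC C (0.0509).

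**Figure D3:**
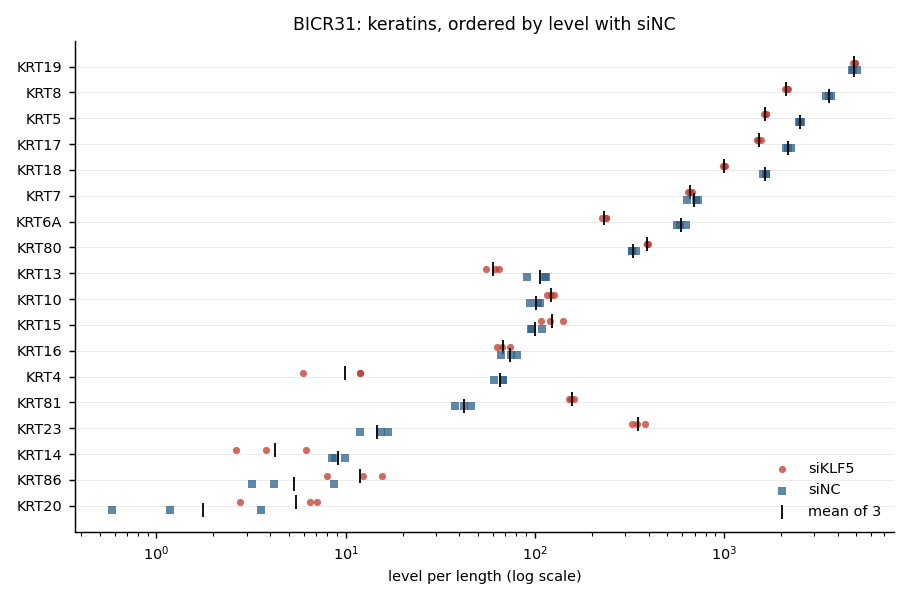
Keratins with a mean level of at least 2, as signal per length on a log x axis, ordered by their level with siNC, with red circles for siKLF5, blue squares for siNC and a black bar for the mean of 3. KRT19 overlaps between the groups at the top, KRT8, KRT5, KRT17 and KRT18 sit lower with siKLF5, and KRT23 sits at 352.7 against 14.62.

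Hemidesmosome genes fell and tight junction genes rose, while desmosome genes and integrins moved both ways. Hemidesmosomes, which join the keratin network to laminin-332, lost transcripts: of 9 genes 6 fell and 0 rose, with a median of -0.58. ITGB4 (-1.25), the hemidesmosome integrin chain, was at 3418, 3642 and 3433 units in siKLF5 A, B and C against 7782, 8800 and 8320 in siNC. COL17A1 (-1.31), the transmembrane collagen of the structure, was at 953.1, 1075 and 787.4 units against 2182, 2416 and 2331. LAMA3 (-0.91), the laminin-332 alpha chain, was at 4626, 5050 and 5094 units against 9145, 9529 and 9024. They kept 42.1% (ITGB4), 40.6% (COL17A1) and 53.3% (LAMA3) of the control level, without overlap. LAMB3 (-0.58), the beta chain, the linker plectin, PLEC (-0.64), and ITGA6 (-0.43), the partner of ITGB4, fell too.

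Tight junctions, the seal between cells, showed the reverse, with 11 of 20 genes up, 0 down and a median of 0.66. The claudins CLDN4 (1.19) and CLDN1 (1.40) rose from 9228 ± 509 to 20983 ± 514 units and from 4530 ± 331 to 11928 ± 732 units (SD, n = 3). OCLN (0.84), occludin, was at 4012, 3643 and 3707 units against 2048, 2134 and 2141, and LSR (0.86), of tricellular junctions, rose from 8341 to 15175 units. The desmosome list was mixed, with 5 up and 2 down of 10: the desmosomal cadherins DSG3 (0.82) and DSC2 (0.95) and the plakoglobin gene JUP (0.34) rose, while the plakophilin PKP1 (-0.48) fell. Without siKLF5 B or siNC A, 1 fell, and with limma's variance not tied to the mean level 3 rose. Among 14 integrins, 6 rose and 1 fell, and the rises were led by ITGB8 (1.94; 5135, 4883 and 4992 units against 1209, 1331 and 1364), which activates TGF-beta, and ITGA2 (1.46), a collagen receptor chain, at 7880, 7342 and 7220 units against 2691, 2635 and 2854. Both rose by more than any spread within a group.

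Genes of epithelial-mesenchymal transition moved both ways, with 5 of 9 up and 1 down (3 up with limma's variance not tied to the mean level). CDH1 (0.81), E-cadherin, and CDH3 (0.76), P-cadherin, rose, from 14362 to 25167 and from 11115 to 18871 units. The mesenchymal matrix gene FN1 (1.12), fibronectin, rose as well, at 8660, 7900 and 7512 units against 3809, 3875 and 3378. The transcription factors parted: SNAI2 (-1.73), Slug, a factor of basal keratinocytes, was at 123.3, 158.3 and 62.99 units against 309.1, 373.9 and 397.5, and SNAI1 (1.46), Snail, was at 180.8, 158.3 and 181.1 against 90.91, 36.47 and 72.27. With limma's variance not tied to the mean level SNAI1 lost its call (limma adjusted p = 0.0548). VIM, vimentin, did not pass (437 against 386 units, 0.18, limma adjusted p = 0.430). CDH2, N-cadherin, was called at 0.51 (454 against 316 units), a call lost without siKLF5 A (limma adjusted p = 0.164), siKLF5 B (0.0589), siNC A (0.0534), siNC B (0.0906) or siNC C (0.0603), and with quantile normalization (0.0571).

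Among factors of epithelial lineage 10 of 22 rose and 4 fell. TP63 (-0.82), the factor of basal cells, was at 1249, 1175 and 1370 units against 2282, 2307 and 2096. The ETS factors ELF3 (0.81) and EHF (0.88), of differentiated epithelium, rose from 3166 to 5541 and from 1753 to 3220 units. Of 12 AP-1 subunits 4 rose and 1 fell, at a median of 0.37. Only 2 rose without siKLF5 A, siKLF5 C or siNC B, with DESeq2, or with limma's variance not tied to the mean level. The subunit that fell, FOSL1 (-1.23), was at 1233, 1150 and 1213 units against 2682, 2872 and 2891. In the Krüppel-like family itself, 3 of 13 tested members rose (23.1%) and 2 fell (15.4%), against 15.3% and 10.8% of all genes tested. With so few members, no result about the family is read from these shares. KLF4 (0.90), of differentiating layers, was at 1947, 1833 and 1882 units against 1036, 921 and 1075, and KLF6 (0.90) at 2251, 2342 and 2181 against 1118, 1267 and 1247. KLF12 (0.80) rose from 218 to 379 units, and of the related SP factors SP6 (0.78) rose from 224 to 385 units. KLF13 was called at -0.44 (limma adjusted p = 0.0613 without siKLF5 C), and the number of family members that fell, 2, was 0 without siKLF5 C and 1 without siKLF5 B or siNC B.

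**Figure D4:**
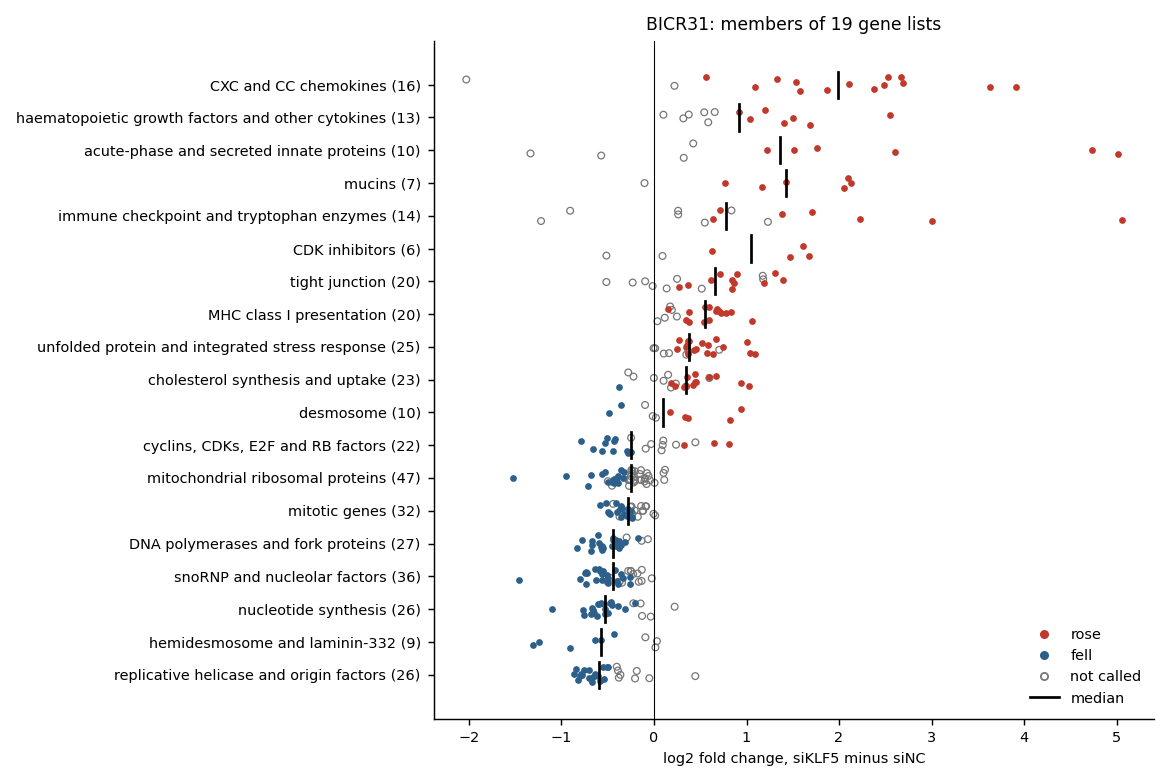
Log2 fold change, siKLF5 minus siNC, of the tested members of 19 gene lists, with the number tested in parentheses; red points rose, blue points fell, open points were not called and the black bar is the median. Chemokines lie around a median of 1.99 at the top, and the replicative helicase around -0.59 at the bottom.

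Chemokines, secreted proteins that draw leukocytes, rose together. Of 16 tested, 14 rose and 0 fell, against 15.3% of all genes tested that rose, and their median was 1.99. IL8 (2.38), a neutrophil attractant, was at 2596, 2450 and 2575 units in siKLF5 A, B and C and 618.2, 337.4 and 560.1 in siNC. CXCL1 (1.33), of the same neutrophil-attracting group, was at 3237, 2767 and 3142 units against 1409, 911.9 and 1364. CXCL6 (2.69), also of that group, was at 427.3, 408.3 and 401.6 units against 72.73, 54.71 and 63.23. The 3 siKLF5 libraries lay close together for each of these genes, and far above the siNC libraries. The interferon-induced chemokines for T cells, CXCL10 and CXCL11 (2.67), were at 731.3, 516.7 and 866.1 against 81.82, 27.36 and 72.27 units and at 394.4, 441.7 and 456.7 against 100, 82.07 and 36.13. CCL5 (2.53), another T cell attractant, was at 189, 200 and 149.6 units against 27.27, 27.36 and 36.13. Of the membrane-bound pair, CX3CL1 (1.53) rose from 388 to 1093 units and CXCL16 (0.56) from 3230 to 4778. CCL28 (1.58), of mucosal epithelia, rose from 224 to 677 units. Rises were also called for CXCL2 (1.88), CXCL3 (2.49) and CXCL5 (1.09).

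Of the remaining chemokines, CCL2 (3.91) had 1 siNC library at 0 and lost its call without siKLF5 C (limma adjusted p = 0.0610). CCL20 (2.11) lost it without siKLF5 A (limma adjusted p = 0.0752) or siKLF5 C (0.104). CXCL14, a chemokine of resting epithelium, had a log2 fold change of -2.03 at 8.03 against 24.2 units and did not pass (limma adjusted p = 0.298). Every chemokine with a mean over 100 units in the siKLF5 libraries was higher in each of them than in any siNC library, as the plot of 3 gene lists by library shows.

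**Figure D5:**
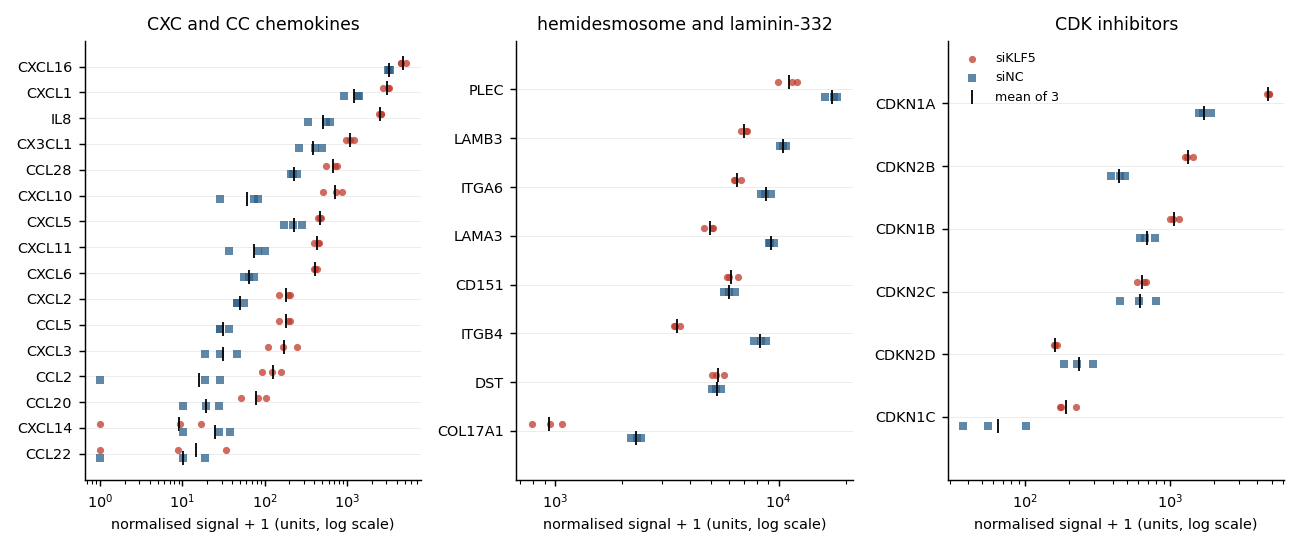
Level of the tested chemokines and CDK inhibitors and of 8 of the 9 hemidesmosome and laminin-332 genes in each library, as normalised signal + 1 in units on a log scale, with red circles for siKLF5, blue squares for siNC and a black bar for the mean of 3. All chemokines but CXCL14 and CCL22 lie to the right with siKLF5, and COL17A1, ITGB4 and LAMA3 lie to the left.

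The NF-kB family of factors, which drives many chemokine genes, binds a known motif near their starts, and the promoters of CXCL1 (chr4:73869143-73869392, plus strand) and CXCL10 (chr4:76023498-76023747, minus strand) are shown for it. They are given as above, 250 bases from RefSeq's table for GRCh38.p14, with matches to the NF-kB motif on either strand in capitals.

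CXCL1: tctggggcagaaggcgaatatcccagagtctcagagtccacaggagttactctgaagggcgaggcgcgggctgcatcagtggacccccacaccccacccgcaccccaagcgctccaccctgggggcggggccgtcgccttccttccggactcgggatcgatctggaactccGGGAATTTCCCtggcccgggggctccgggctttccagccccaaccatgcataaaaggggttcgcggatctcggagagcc

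CXCL10: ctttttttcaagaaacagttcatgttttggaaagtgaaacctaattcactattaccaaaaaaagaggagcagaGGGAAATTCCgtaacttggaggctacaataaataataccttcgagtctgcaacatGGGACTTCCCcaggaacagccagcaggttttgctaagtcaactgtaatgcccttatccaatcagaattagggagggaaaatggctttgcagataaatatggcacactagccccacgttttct

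In CXCL1 the capitals are 2 overlapping matches, 1 for each reading of a near-palindrome, starting 79 and 78 bases before the start, and in CXCL10 there are 2 separate matches at 177 and 122 bases. Both are examples that hold the motif, and the promoter of IL8 held 0 matches in this window. The motif was held by 6.01% of the promoters of tested protein-coding genes, by 9.78% of those of genes that rose at least 2-fold and by 4.92% of those that fell at least 2-fold. Promoters were matched for 12 of 16 tested chemokines, and 9 of these 12 held the motif. The promoters are few, and a link between the motif and the rise was not tested.

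Cytokines and NF-kB feedback genes rose as well, and an order between them and the chemokines was not tested. Among the IL-1 family, 5 of 10 rose and 0 fell (1 fell with quantile normalization, and 3 rose with limma's variance not tied to the mean level): the receptor IL1R1 (2.27) was at 1726, 1767 and 1803 units against 454.5, 273.6 and 388.4, and the ligand IL1A (1.40), released by damaged keratinocytes, at 394.4, 508.3 and 559.1 against 172.7, 155 and 225.8. IL1B (2.03) was called too, from 82 to 300 units, but not under the last of these settings (limma adjusted p = 0.0575). LIF (1.44), a cytokine of the IL-6 family, was at 3212, 3867 and 3732 units against 1218, 1423 and 1337. IL32 (1.40), TNFSF10 (1.03), the death ligand TRAIL, CSF1 (0.92), the macrophage growth factor, and LTB (1.51), lymphotoxin beta, were the cytokines of other families with the smallest adjusted p, of 7 that rose among 13. Of 25 NF-kB subunits, kinases and feedback genes 13 rose and 2 fell (1 without siKLF5 A, siKLF5 B, siNC A or siNC C). The feedback inhibitors NFKBIA (0.98) and TNFAIP3 (1.21) rose from 3348 to 6598 and from 1180 to 2725 units, and BIRC3 (1.24), an inhibitor of cell death, from 1029 to 2428.

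Among acute-phase and secreted innate proteins 6 of 10 tested rose and 0 fell, with SAA2 (2.61), serum amyloid A, at 1405, 1201 and 1252 units against 173.1, 233.8 and 227.2. LCN2 (1.51), the iron-sequestering lipocalin, was at 4199, 3333 and 3882 units against 1373, 1222 and 1400, and SERPINA1 (1.76), alpha-1-antitrypsin, rose from 336 to 1132 units. The alarmins S100A9 (2.61) and S100A8 (2.37), which form calprotectin, were at 7666, 6058 and 7079 against 1382, 1030 and 1012 units and at 402.6, 325 and 448.8 against 100, 45.59 and 90.33. Over 14 S100 genes tested 2 rose and 3 fell (1 fell without siNC B), and S100A2 (-0.66), of basal cells, was among the falls. In complement 7 of 15 rose and 3 fell (4 rose without siKLF5 A or siKLF5 C or with DESeq2 on the estimated counts), led by CFB (2.80), factor B, at 2876, 2242 and 2874 units against 472.7, 282.7 and 406.5, and by C3 (1.79), at 2309, 1850 and 2165 against 618.2, 565.4 and 632.3. In SAA2, LCN2, S100A9, S100A8, CFB and C3 the library siKLF5 B was the lowest of its group, and still above every siNC library.

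Antigen presentation and immune checkpoint genes moved upward as well. In MHC class I presentation 15 of 20 rose and 0 fell, at a median of 0.55. The chaperone TAPBP (0.72), tapasin, rose from 6796 to 11210 units, HLA-B (0.67) from 8969 to 14262, HLA-C (0.60) from 16097 to 24375 and PSMB10 (0.83), an immunoproteasome subunit, from 1575 to 2796, where reads of HLA genes may be shared between loci. Among checkpoint ligands and tryptophan enzymes 7 of 14 rose and 0 fell. VTCN1, B7-H4, was at 583.4, 358.3 and 472.4 units against 36.36, 36.47 and 135.5, LGALS9 (1.71), galectin-9, at 820.5, 783.3 and 803.1 against 254.5, 282.4 and 203.2, and KMO (2.23), a later enzyme than IDO1 in tryptophan breakdown, at 318.4, 213.2 and 233.1 against 54.55, 54.71 and 49.32. TNFRSF14 (1.39), CD276 (0.64) and PVRL2 (0.71) rose too. CD274, PD-L1, was low and did not pass (70.69 ± 11.04 against 48.46 ± 10.68 units, limma adjusted p = 0.411). Of 22 RNA and DNA sensors 10 rose and 1 fell (6 rose without siKLF5 B or with DESeq2 on the estimated counts, 5 with limma's variance not tied to the mean level, and 0 fell without siNC A), among them the RNA helicases DDX58 (1.39) and DHX58 (1.74).

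Mucins, the large glycoproteins of wet epithelia, rose in 6 of 7 tested cases. MUC4 (2.09) was at 2613, 1992 and 1921 units in siKLF5 A, B and C against 490.9, 465.1 and 560.1, and MUC16 (2.13) at 4823, 2317 and 1921 against 718.2, 583.6 and 614.3. In MUC16 the library siKLF5 A stood far above the other siKLF5 libraries. MUC20 (1.43) rose from 1101 to 2949 units, MUC1 (1.16) from 239 to 531 and MUC3A (2.05) from 27.3 to 116. MUC15 was called at 0.76, and lost the call without siKLF5 B (limma adjusted p = 0.151), siKLF5 C (0.0877), siNC A (0.0919) or siNC C (0.0666). Metalloproteinases, which cut matrix, rose in part, with 7 of 18 genes of the list up and 2 down: MMP13 (2.53) was at 1939, 1500 and 1693 units against 427.3, 182.4 and 325.2, MMP9 (1.64) at 755.2, 725 and 559.1 against 281.8, 246.2 and 144.5, and MMP14 (0.87) rose from 5336 to 9771 units. TIMP3 (-0.52), an inhibitor of these enzymes, fell.

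Inhibitors of cyclin-dependent kinases, which hold cells out of division, rose in 4 of 6 tested cases. CDKN1A (1.47), p21, was at 4774, 4683 and 4811 units in siKLF5 A, B and C against 1682, 1578 and 1897 in siNC. CDKN2B (1.61), p15, was at 1438, 1308 and 1260 units against 445.5, 483.3 and 388.4, and CDKN1C (1.68), p57, at 221.9, 175 and 173.2 against 36.36, 100.3 and 54.2. CDKN1B (0.63), p27, rose from 690 to 1064 units, and CDKN2D, p19, did not pass at -0.51 (160 against 233 units, limma adjusted p = 0.135). The gap between groups was larger than the spread within them for each of the 4 that rose, which the call itself favours. Of 22 cyclins, kinases and E2F factors 3 rose and 11 fell (7 fell with limma's variance not tied to the mean level). CCND1 (-0.43), cyclin D1, was at 34021, 33985 and 33335 units against 45419, 45127 and 45571, and CCND2 (-0.79), cyclin D2, fell from 1638 to 945 units, while CCND3, singled out after its values were seen, rose by 0.81 from 472 to 831 units.

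Genes of DNA replication fell, from origin loading to nucleotide supply. Of 26 genes of the replicative helicase and of origin loading 18 fell and 0 rose (1 rose without siNC A), against 10.8% of all genes tested that fell, with a median of -0.59. MCM2 (-0.79), a subunit of the MCM ring that unwinds DNA, was at 3114, 3358 and 3189 units against 5636, 5654 and 5438. MCM5 (-0.71) was at 3484, 3925 and 3472 units against 6218, 5608 and 5935, and MCM7 (-0.58) at 5842, 6242 and 6378 against 9354, 9584 and 8645. MCM4 (-0.75), MCM6 (-0.78) and MCM3 (-0.66) fell too, so all 6 subunits of the ring did, to between 57.8% (MCM2) and 66.9% (MCM7) of the control. Of 27 DNA polymerase and fork genes 24 fell and 0 rose, with PCNA (-0.67), the sliding clamp, at 3402, 3067 and 3315 units against 5545, 4842 and 5230. Of 26 nucleotide synthesis genes 21 fell and 0 rose, among them TYMS (-0.66), thymidylate synthase, TK1 (-0.58), thymidine kinase, CAD (-0.77), of pyrimidine synthesis, and PAICS (-0.60), of purine synthesis. Of 32 mitotic genes 18 fell and 0 rose, at a median of -0.28, with CDC20 (-0.52), PLK1 (-0.41) and AURKB (-0.49). With limma's variance not tied to the mean level, 14 of the polymerase and fork genes and 5 of the mitotic genes fell.

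The promoters of MCM7 (chr7:100101398-100101647, minus strand) and PCNA (chr20:5126623-5126872, minus strand) are shown with matches in capitals to TTTGGCGC or TTTCCCGC on either strand, the site of E2F factors that act at the start of DNA synthesis.

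MCM7: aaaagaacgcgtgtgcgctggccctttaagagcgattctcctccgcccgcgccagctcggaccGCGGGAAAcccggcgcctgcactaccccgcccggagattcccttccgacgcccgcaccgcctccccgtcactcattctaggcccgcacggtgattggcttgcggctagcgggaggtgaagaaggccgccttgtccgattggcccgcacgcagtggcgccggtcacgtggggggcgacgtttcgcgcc

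PCNA: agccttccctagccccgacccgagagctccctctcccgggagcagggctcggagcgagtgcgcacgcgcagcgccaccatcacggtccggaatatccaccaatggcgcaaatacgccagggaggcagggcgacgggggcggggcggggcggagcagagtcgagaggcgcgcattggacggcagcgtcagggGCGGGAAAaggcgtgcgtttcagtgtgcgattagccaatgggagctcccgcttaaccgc

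Each held 1 match, 187 bases before the start in MCM7 and 59 in PCNA. Both are examples that hold a match, and the promoters of MCM2, TK1 and CAD held 0 in this window. These letters were found in 3.01% of the promoters of tested protein-coding genes, in 5.07% of those of genes that fell and in 2.33% of those of genes that rose. Among genes that fell at least 2-fold the share was 1.64% (2 of 122 promoters), and among those that rose at least 2-fold 1.96%, both under the share of all tested. In the helicase and origin list 6 of 22 matched promoters (27.3%) held them, and in the polymerase and fork list 5 of 23 (21.7%). Over mitotic genes it was 1 of 26 (3.85%) and over nucleolar factors 1 of 29 (3.45%). Matches of different motifs may share bases.

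Genes of ribosome production fell too. Of 36 proteins of the nucleolus and of small nucleolar particles 24 fell and 0 rose, at a median of -0.45. FBL (-1.46), fibrillarin, the methylase of ribosomal RNA, was at 632.7, 708.3 and 787.4 units in siKLF5 A, B and C against 1800, 2207 and 1861 in siNC, the largest fall of the list. NPM1 (-0.58), nucleophosmin, fell from 22505 to 15048 units, DKC1 (-0.73), dyskerin, from 4047 to 2440 and NOP56 (-0.74) from 3632 to 2183. Among subunits of RNA polymerases I and III 6 of 26 fell and 0 rose, with POLR1E (-0.96) and POLR1B (-0.92) in front. Of 47 mitochondrial ribosomal proteins 17 fell and 0 rose, and MRPL17 (-1.52) was at 394.4, 450 and 582.7 units against 1345, 1386 and 1328. With limma's variance not tied to the mean level, 3 of the polymerase subunits and 8 of the mitochondrial ribosomal proteins fell. MYC (-0.49), which drives ribosome production, was at 2498, 2350 and 2827 units against 3673, 3511 and 3595. Its relative MYCN (2.21) rose at a low level, from 48.5 to 214 units, as did MXD4 (1.43), an antagonist of MYC, from 221 to 592.

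Transporters and enzymes of nutrient and lipid supply moved both ways. SLC7A5 (-1.06), the transporter of large neutral amino acids, was at 12994, 12960 and 12996 units against 26008, 28210 and 27309, and its partner SLC3A2 (-0.56) fell from 8467 to 5766 units. The sugar transporter SLC2A12 (1.85) rose from 540 to 1951 units, and SAT1 (1.68), which acetylates polyamines, was at 5308, 4758 and 5094 units against 1727, 1495 and 1518. Of 23 cholesterol genes 13 rose and 1 fell (0 without siKLF5 B, siKLF5 C or siNC B, and 2 with quantile normalization or TMM scaling), with HMGCS1 (1.03) from 2636 to 5327 units and INSIG1 (0.94), which senses sterols. In 17 retinoid genes 8 rose and 2 fell, and ALDH1A3 (0.90), which makes retinoic acid, went from 11742 to 21838 units. Of 25 stress response genes of the endoplasmic reticulum 18 rose and 0 fell (11 rose with limma's variance not tied to the mean level), with PDIA4 (1.09) at a mean of 6430 against 3029 units and HSPA5 (0.45), the chaperone BiP, at 20475 against 14959.

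Among receptors and their signals, ERRFI1 (1.60), a feedback inhibitor of the EGF receptor, was at 4979, 5175 and 5205 units against 1973, 1550 and 1581, and ERBB3 (1.16), a receptor of the same family, at 3607, 3617 and 3528 against 1618, 1669 and 1536. The dual-specificity phosphatases of MAP kinases DUSP10 (1.34), DUSP5 (0.83) and DUSP8 (1.33) rose. In the NOTCH list 7 of 20 rose and 3 fell: the ligand JAG1 (1.45) was at 1898, 1792 and 1929 units against 627.3, 793.3 and 650.4, HES2 (1.03) rose from 1686 to 3450 units, and NRARP fell as given above. In the BMP and TGF-beta list 11 of 27 rose and 2 fell, or 7 rose without siKLF5 A, 6 without siKLF5 B or with DESeq2 on the estimated counts, 7 without siNC C and 5 with limma's variance not tied to the mean level. GDF15 (2.21), a stress-induced hormone of this family, was at 616.3, 683.3 and 519.7 units against 136.4, 118.5 and 135.5, and ID3 (1.25), a target of BMP signals, rose from 481 to 1137 units.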

How the data were processed

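The submitters' processing notes name STAR, RSEM and the build hg19. The BICR31 files hold a normalised signal per gene that the authors deposited, and its scaling was not given in the sources used here. Its 75th percentile over values above 0 was 983.3 to 992.1 in every library. Dividing by the smallest step made 81.7% to 82.7% of values whole within 0.02, and the counts quoted are estimates from that step. The HCC95 files hold RSEM expected counts, as deposited and per the file headers, used as CPM without a test. Their gene IDs gave symbols and their effective lengths served for levels per length, scaled to the same sum in each library.

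The 15710 genes (of 57820) with mean signal of 10 units or more were tested on log2(signal + 1) with limma 3.58.1 (moderated for a trend of variance with level, two-sided, Benjamini-Hochberg over all genes tested, threshold 0.05). Alternatives used edgeR 4.0.16 and DESeq2 1.42.0 on the estimated counts, in R 4.3.3, with tables and plots in Python 3.11.15 (pandas 2.3.3, matplotlib 3.10.9). The tests were tried on simulated data with known changes. Biotypes came from GENCODE 29 by ID (52338 matched). Named are KLF5, the 20 largest rises and 20 largest falls (protein-coding, no overlap, at least 100 units in the higher group, called in every fit without 1 library), up to 4 called members per list by adjusted p, and further members of lists described in full. Members and lists were chosen with earlier results of these data known, and lists are described by counts and medians with no test. A few genes that this rule names are not reported here. Promoters were matched by symbol. Deviations of same-lettered libraries correlated at 0.00 to 0.03, so the letters A, B and C were not taken to pair libraries. No library repeated another: the chi-square of counts over its degrees of freedom was 1.22 to 1.82 for libraries of 1 group and 7.44 to 8.34 across groups.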

Additional observations from a re-analysis of the deposited data

How the results depend on the processing

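The fall of KLF5 kept its direction and its call under all 16 alternatives, with log2 fold changes of -1.47 to -1.34. Counts of genes that rose and fell were 2404 and 1693 and stayed within 1.5 times of these under all alternatives but 1: with limma's variance not tied to the mean level 1420 rose and 861 fell. With 1 library left out, 1868 to 2222 rose and 1313 to 1412 fell. A replicate block by letter gave 2402 and 1674. With edgeR on the estimated counts 2259 rose and 2163 fell, and with DESeq2 1605 and 1444, so the share of calls that rose was 51.1% and 52.6%, and 50.5% with TMM scaling, against 58.7%. The median shift of a gene's log2 fold change was largest with quantile normalization, at -0.061. The median of all genes was -0.026 there and 0.038 in the main fit. Of 300 genes named or listed, 263 kept their call under every alternative. Much of this was set by the choice of genes, which used fits without 1 library and the smallest adjusted p. A gene not tested under an alternative was counted as keeping its call. Over all genes, 1550 of the 2404 that rose and 996 of the 1693 that fell kept their call whichever library was left out. KRT19, which was not called, turned its sign with quantile normalization (0.08), and over the fits without 1 library it ranged from -0.04 to 0.01. Depth limits low genes, since 3 counts equal 23.6 to 27.4 units.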

Other observations

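Some groups not described above also moved. Of 24 lysosome genes 14 rose and 1 fell (9 rose without siKLF5 C, 6 with limma's variance not tied to the mean level; 0 fell with that setting or without siKLF5 B or siNC B), among them the proteases CTSB (0.91) and CTSD (0.32). Of 29 autophagy genes 11 rose and 2 fell (7 rose without siKLF5 C or siNC B, 4 with limma's variance not tied to the mean level): the adaptor SQSTM1 (0.64), the kinase ULK1 (1.11) and WIPI1 (1.18) rose and ATG9A (-0.60) fell, while its paralog ATG9B was among the largest rises. Of 25 genes of ion and water transport 9 rose and 2 fell (5 and 1 with limma's variance not tied to the mean level; 1 fell without siKLF5 B, siKLF5 C, siNC A or siNC C), and among the rises was SLC12A2 (1.499), the cotransporter that loads chloride into secretory cells, at 4799, 4617 and 4622 units in siKLF5 A, B and C against 1727, 1614 and 1626 in siNC. In the same list the calcium-activated chloride channel ANO1 (-0.78) fell from 12337 to 7168 units, opposite to CFTR. Of 9 kallikrein-related peptidases 4 rose and 1 fell. Their median was -0.42, but 0.44 with edgeR and 0.4 with only genes of a mean of at least 50 units. Among the rises KLK7 (2.05), which cleaves desmosomes in shedding epithelium, was at 5152, 4817 and 5543 units against 1400, 1122 and 1229.

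Levels in HCC95, in the 2 libraries with an empty vector (A, B) and the 2 with wild-type KLF5 (A, B), are set beside BICR31 as values with no test. Of the 20 largest falls in BICR31, 8 were higher in both KLF5 libraries than in both empty-vector libraries, 5 were lower in both and 7 overlapped. Of the 20 largest rises, 6 were lower in both KLF5 libraries, 2 were higher in both and 12 overlapped. Among the 12, IDO1, KRT23, KCNK15, SLC5A1 and TNFRSF11B were at 0 CPM in all of these libraries and could not separate. The share of all genes that separated in each way was not worked out, so these counts have no background to be read against. The genes given next were chosen after their values were seen. KRT4 was at 40.2 and 27.8 CPM with the empty vector and 83.0 and 74.6 with KLF5, and ALPP at 1.16 and 1.72 against 18.1 and 9.80. PSAPL1 was at 6.4 and 5.2 against 17.6 and 23.3 CPM. These 3 genes fell in BICR31 with siKLF5. PGBD5, which rose there, was at 39.1 and 30.8 against 15.9 and 16.3 CPM, and PTGS2 at 41.1 and 34.5 against 23.9 and 17.8. LY6D and NRARP, which fell in BICR31, were lower with KLF5 in HCC95 too, LY6D at 39.7 and 32.5 against 11.7 and 17.8 CPM and NRARP at 27.5 and 40.7 against 13.9 and 17.0.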
